A study of Mus musculus with 18 samples.

Results

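The 42 genes described here are interferon-stimulated antiviral genes, listed by gene symbol, and all 42 were found among the 23329 genes of the count tables. The list was chosen with earlier results of these data known. Shares of all genes printed beside its counts are therefore a description and no test of the list. The RNA came from FDH cells, a line of mouse fetal liver cells from BALB/c embryos (E14.5) that were immortalised and used at passages 10 to 12. The mice lacked βc and βIL-3, the signalling subunits of the mouse IL-3 receptor, and both lines studied were transduced with βc. One line also carried IL3Rα, the IL-3-binding subunit, with the amino acid change P248L, and the other carried wild-type (WT) IL3Rα. Each line was sampled untreated, in medium with doxycycline and 100 ng/ml mouse SCF (stem cell factor), and after 2 or 5 days in medium with 100 ng/ml IL-3. That IL-3 medium is described without doxycycline and without SCF, so a change over time in IL-3 medium may come from added IL-3 or from withdrawn SCF and doxycycline, which cannot be told apart. The 6 groups were therefore P248L untreated, P248L day 2, P248L day 5, WT untreated, WT day 2 and WT day 5, with 3 libraries each. With 1 line per receptor, the receptor and the line cannot be told apart. The labels do not say whether the 3 libraries of a group came from separate cultures, so the p-values measure the spread between these libraries, which may be technical.

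Type I interferons (interferon beta and the interferon alphas) bind the receptor made of IFNAR1 and IFNAR2, whose kinases TYK2 and JAK1 act on transcription factors that include STAT2. STAT2 works with IRF9 at the interferon-stimulated response element (ISRE) in promoters, where genes such as those listed are switched on. Their products detect viral nucleic acid, block translation, degrade RNA, alter nucleotide pools, hold back virus release or attach the ubiquitin-like protein ISG15 to other proteins. Myeloid cells such as macrophages and neutrophils are known to express many of these genes, also at rest.

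Reads assigned to genes numbered 13844612 to 27181962 per library. Levels are given as CPM, the reads of a gene per 1000000 of these reads, after TMM scaling. After this scaling, the listed genes summed to 0.0593 to 1.17% of 1000000 CPM, by group mean, which is not their plain share of reads. Progenitor markers were high untreated (summed 7751 to 10575 CPM in P248L and 9428 to 10382 CPM in WT, mostly Mpo). The hepatocyte genes Alb and Ttr had no reads in any group. Afp, another hepatocyte gene on the marker list, had reads in every group, with 14, 13.3 and 14.3 CPM at WT day 2. It had 0.845, 1.2 and 0.621 CPM in WT untreated libraries. P248L untreated library 1 and P248L day 2 library 3 lay farthest from their groups, with a root mean square log2 deviation of 0.459 and 0.393, against 0.171 for the library nearest to its group. Some of the counts that rest on these libraries, but not all, are also given without them. In this bulk RNA, fewer cells of a type and less RNA per cell cannot be told apart.

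Most listed genes were low in both lines before IL-3 and at day 2, and at day 5 most were far higher in WT cells than in P248L cells. Their summed level in P248L cells was 752 ± 128 CPM untreated, 593 ± 46.6 CPM at day 2 and 1948 ± 84.3 CPM at day 5 (SD, n = 3 each). In WT cells it was 793 ± 42.2 CPM untreated, 720 ± 40.5 CPM at day 2 and 11654 ± 737 CPM at day 5. Among the 42, 6 reached 100 CPM or more in P248L cells at day 5, against 30 in WT cells at day 5. The median gene stood at 16.3 CPM in P248L cells and 217 CPM in WT cells at day 5.

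**Figure D1:**
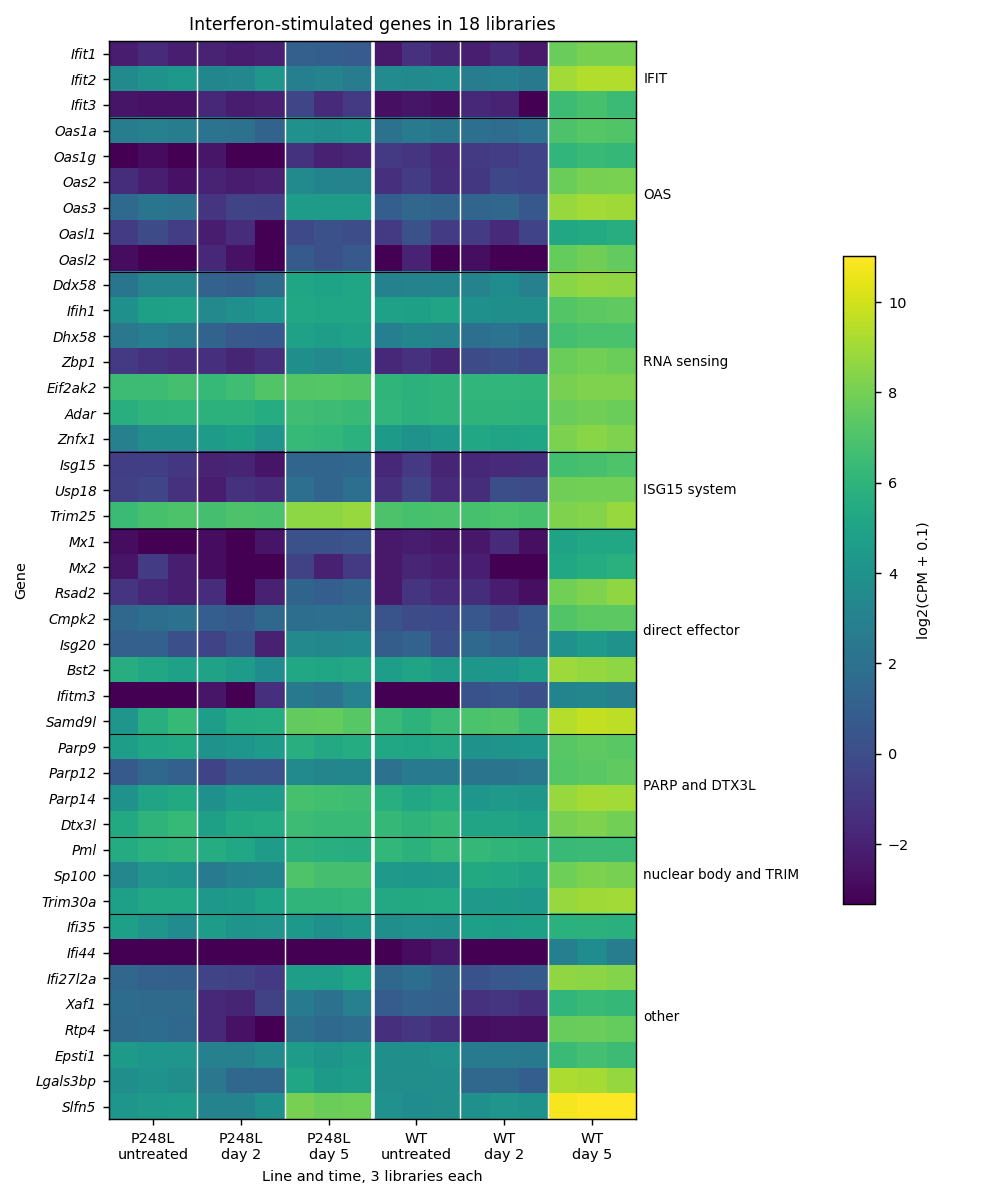
Level of the 42 interferon-stimulated genes (rows, grouped by role) in the 18 libraries (columns, 3 per line and time), as log2(CPM + 0.1). The WT day 5 columns stand out over nearly every row, with 30 genes at 100 CPM or more, and the P248L day 5 columns show a smaller increase, with 6 genes at that level.

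Against the same line's untreated cells, 32 of 42 listed genes were higher and 1 was lower in P248L cells at day 5 (edgeR quasi-likelihood test, Benjamini-Hochberg adjusted p under 0.05 over 11942 genes tested). Of all genes tested, 34.8% were higher and 36.2% lower in that comparison. In WT cells at day 5, 41 of 42 were higher than untreated and 0 lower, while 35.7% of all genes were higher and 37.4% lower. The count of 0 lower was also 0 at an unadjusted p under 0.05 and in DESeq2 and limma-voom, and Pml was the gene that did not pass. The median log2 fold change of the 42 was 1.89 in P248L cells and 5.42 in WT cells, beside -0.02 and -0.05 over all genes tested. These day 5 comparisons pass through each line's own untreated libraries, so the difference between the lines' responses was tested directly. It was negative, meaning a smaller response in P248L cells, for 33 of 42 listed genes and positive for 0, against 12.2% and 14.7% of all genes. The count of 0 was also 0 at an unadjusted p under 0.05 and in DESeq2 and limma-voom. Scaling by library size alone moved the median of all genes to -0.25 in P248L and -0.49 in WT cells and the share of higher among all calls to 40.2% in P248L and 34.4% in WT cells, beside 49.0% and 48.9% with TMM, and left 28 listed genes higher in P248L and 41 in WT cells. For the difference of the responses it moved that share to 72.7%, beside 54.6%, and the count of listed genes to 32. Leaving out the 2 libraries that lay farthest changed these counts to 30 higher and 1 lower in P248L, 42 higher in WT, and 35 for the difference.

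Promoter windows from RefSeq (GRCm38.p6, from 250 bases before to 50 bases after the start) were searched for the ISRE core (GAAA, then 2 bases of any kind, then GAAA) on both strands. The table held windows for 32 of the 42 genes, and 14 of these 32 (43.75%) had at least 1 match, against 3.993% of all 27025 genes in it. For the GAS core TTCNNNGAA, the core of the gamma-activated site, 8 of the 32 had a match (25%), against 9.554% of all genes. A match is a description of letters and shows no binding. The 14 genes with an ISRE core had a median log2 fold change of 2.49 in P248L and 7.47 in WT cells at day 5 over untreated, and the 18 without had 0.74 in P248L and 3.85 in WT cells. The first set of sequences gives, for 8 of the genes with a match, the match in capitals with 10 bases on each side where the window allows. It is shown because Oas1a shares its matches with Oas1g, and Ifit1 with Ifit3, and several genes carry more than 1. A match on the other strand reads TTTC first.
Isg15, chr4:156200865-156200906, minus strand: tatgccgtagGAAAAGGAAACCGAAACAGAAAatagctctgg
Ifit1, chr19:34640775-34640823, plus strand: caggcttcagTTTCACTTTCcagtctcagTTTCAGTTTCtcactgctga
Ifit3, chr19:34583363-34583426, plus strand: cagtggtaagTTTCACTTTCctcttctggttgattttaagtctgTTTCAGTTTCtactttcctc
Oas1a, chr5:120907520-120907555, minus strand: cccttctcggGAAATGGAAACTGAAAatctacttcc
Oas1g, chr5:120887606-120887641, minus strand: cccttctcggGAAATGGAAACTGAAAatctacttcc
Eif2ak2, chr17:78882535-78882564, minus strand: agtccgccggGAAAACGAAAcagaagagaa
Ifih1, chr2:62646206-62646233, minus strand: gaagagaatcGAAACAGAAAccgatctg
Ifitm3, chr7:141010706-141010752, minus strand: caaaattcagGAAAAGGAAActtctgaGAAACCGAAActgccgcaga

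Isg15 carries 3 overlapping matches from 78 to 57 bases before its start, more than any other listed gene in the table. Oas1a and Oas1g have the same 36 bases here, and Ifit1 and Ifit3 share the same pair of decamers at different spacing. The second set gives whole windows of the 6 genes with a match that had the highest CPM at WT day 5, again with matches in capitals, followed by the 2 without a match that had the highest CPM, Samd9l and Ifit2.
Slfn5, chr11:82951852-82952151, plus strand: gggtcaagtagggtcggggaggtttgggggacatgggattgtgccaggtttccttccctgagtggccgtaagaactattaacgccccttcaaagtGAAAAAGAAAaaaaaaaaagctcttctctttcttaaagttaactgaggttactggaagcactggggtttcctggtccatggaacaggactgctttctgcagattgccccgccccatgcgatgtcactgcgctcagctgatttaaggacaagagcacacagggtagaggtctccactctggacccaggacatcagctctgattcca
Oas3, chr5:120777610-120777909, minus strand: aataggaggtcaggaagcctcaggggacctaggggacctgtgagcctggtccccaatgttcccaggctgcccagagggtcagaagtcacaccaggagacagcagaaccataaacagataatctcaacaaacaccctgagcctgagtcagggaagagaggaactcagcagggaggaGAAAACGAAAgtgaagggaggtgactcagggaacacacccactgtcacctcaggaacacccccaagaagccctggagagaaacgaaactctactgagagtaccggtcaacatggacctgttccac
Trim30a, chr7:104465144-104465443, minus strand: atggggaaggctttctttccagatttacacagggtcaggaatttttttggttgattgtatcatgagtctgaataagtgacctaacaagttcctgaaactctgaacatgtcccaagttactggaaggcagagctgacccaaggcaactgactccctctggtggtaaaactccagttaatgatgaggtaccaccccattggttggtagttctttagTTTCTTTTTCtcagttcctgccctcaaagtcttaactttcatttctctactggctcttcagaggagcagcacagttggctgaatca
Bst2, chr8:71537423-71537722, minus strand: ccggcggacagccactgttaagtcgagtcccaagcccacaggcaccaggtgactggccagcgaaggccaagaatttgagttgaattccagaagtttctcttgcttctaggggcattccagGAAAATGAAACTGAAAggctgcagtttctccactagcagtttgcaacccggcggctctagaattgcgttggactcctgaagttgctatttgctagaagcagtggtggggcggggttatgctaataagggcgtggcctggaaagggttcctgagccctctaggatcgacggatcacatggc
Ddx58, chr4:40239776-40240075, minus strand: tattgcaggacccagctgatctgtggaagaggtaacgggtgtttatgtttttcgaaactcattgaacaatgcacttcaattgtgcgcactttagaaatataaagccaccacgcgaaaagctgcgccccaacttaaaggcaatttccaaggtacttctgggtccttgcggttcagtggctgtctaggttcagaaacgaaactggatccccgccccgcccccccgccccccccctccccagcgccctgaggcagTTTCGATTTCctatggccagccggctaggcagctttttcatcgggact
Rsad2, chr12:26456403-26456702, minus strand: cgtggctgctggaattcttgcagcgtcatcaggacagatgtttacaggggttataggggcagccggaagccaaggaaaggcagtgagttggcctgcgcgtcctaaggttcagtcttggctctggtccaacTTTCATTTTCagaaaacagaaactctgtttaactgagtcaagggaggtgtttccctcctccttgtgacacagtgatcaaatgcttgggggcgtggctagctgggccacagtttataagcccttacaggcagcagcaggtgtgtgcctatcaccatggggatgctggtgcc
Samd9l, chr6:3399522-3399821, minus strand: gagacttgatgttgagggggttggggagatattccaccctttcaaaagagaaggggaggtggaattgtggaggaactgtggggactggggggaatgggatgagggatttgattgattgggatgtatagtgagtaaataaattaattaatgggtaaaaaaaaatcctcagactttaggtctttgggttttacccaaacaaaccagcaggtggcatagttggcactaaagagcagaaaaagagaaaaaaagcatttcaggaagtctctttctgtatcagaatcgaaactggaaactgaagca
Ifit2, chr19:34550444-34550743, plus strand: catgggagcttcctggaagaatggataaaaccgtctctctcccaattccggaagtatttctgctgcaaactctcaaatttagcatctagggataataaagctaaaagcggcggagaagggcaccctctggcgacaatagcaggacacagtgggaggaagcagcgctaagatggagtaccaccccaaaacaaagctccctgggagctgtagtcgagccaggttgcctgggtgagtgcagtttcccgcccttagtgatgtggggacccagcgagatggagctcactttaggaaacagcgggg

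Bst2 has 2 overlapping matches, from 130 to 115 bases before its start. Trim30a has a second window with a match, not shown. Ifit2 has a second window, also without a match and not shown. Of the genes without a match shown here, Ifit2 rose in WT cells and fell in P248L cells, and Samd9l rose in both.

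Of the IFIT genes, whose products bind viral RNA ends and restrain their translation, all 3 were lower in P248L cells than in WT cells at day 5. Ifit1 had 1.99, 1.84 and 1.63 CPM in P248L day 5 libraries, against 216, 269 and 265 CPM in WT day 5 libraries (log2 fold change -7.09 ± 0.20 SE, adjusted p = 6.16e-14). Ifit3 had 0.695, 0.23 and 0.439 CPM in P248L day 5 libraries, against 91.1, 114 and 88.8 CPM in WT day 5 libraries. The groups stood far apart for both genes, although both had also risen in P248L cells, by a log2 fold change of 3.43 ± 0.30 for Ifit1 and 2.71 ± 0.57 for Ifit3 over untreated. Ifit2 went the other way in P248L cells. It had 7.13, 8.28 and 6.65 CPM at P248L day 5, against 10.9, 15.9 and 20.1 CPM in P248L untreated cells (log2 -1.09 ± 0.23, adjusted p = 0.000419), and it was the 1 listed gene that was lower there. In WT cells Ifit2 had 525, 668 and 654 CPM at day 5, against 11.9, 11.6 and 12.5 CPM untreated (log2 5.68 ± 0.26, adjusted p = 1.27e-12). The difference of the Ifit2 responses was -6.76 ± 0.34 on the log2 scale (adjusted p = 3.01e-10). Ifit2 and Ifit3 lie 6.58 kb apart on chromosome 19 (GRCm38.p6, RefSeq).

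The OAS genes encode enzymes that make 2'-5'-linked oligoadenylate when they bind double-stranded RNA, which activates RNase L, and the OAS-like genes Oasl1 and Oasl2 belong to the same family. All 6 were lower in P248L than in WT cells at day 5, and 5 of 6 had risen over untreated in P248L cells. Oas3 had 22.9, 23.2 and 24.5 CPM in P248L day 5 libraries, against 446, 519 and 496 CPM in WT day 5 libraries (log2 -4.37 ± 0.19, adjusted p = 6.68e-12). Oas2, its neighbour on chromosome 5 at 3.21 kb, had 11, 8.9 and 8.41 CPM in P248L day 5 libraries, against 223, 264 and 280 CPM in WT day 5 libraries. Both genes rose in both lines, and the libraries of the lines did not overlap at day 5. Oasl2 had 1.57, 1.07 and 1.51 CPM in P248L day 5 libraries, against 196, 241 and 187 CPM in WT day 5 libraries. Untreated P248L cells held 1 read of Oasl2 in all, so its rise in P248L cells is given as a ratio of CPM, 104 with a 95% counting interval of 18.01 to 4149. Oasl1 was the OAS member that did not pass in P248L cells, with 0.787, 1.07 and 0.941 CPM at day 5, against 0.488, 0.885 and 0.512 CPM untreated (log2 0.50 ± 0.40, adjusted p = 0.279). Oas1a and Oas1g lie 8.64 kb apart and share much of their sequence, so the split of reads between them is uncertain. Oas1a had 15, 13.7 and 16.2 CPM in P248L day 5 libraries, against 130, 151 and 142 CPM in WT day 5 libraries. Oas1g, at 0.295% of its WT level, was the lowest in proportion among the genes with reads in both groups, with 0.324, 0.153 and 0.188 CPM in P248L day 5 libraries, against 69.9, 80 and 75.9 CPM in WT day 5 libraries.

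The nucleic acid sensors and RNA-binding effectors include Ddx58 (RIG-I), Ifih1 (MDA5) and Dhx58 (LGP2), which detect viral RNA in the cytoplasm, and Zbp1, a sensor of Z-form nucleic acid. All 7 genes of this group rose in both lines at day 5, and all 7 were lower in P248L than in WT cells. Zbp1 had 13.9, 10.7 and 13.9 CPM in P248L day 5 libraries, against 219, 253 and 223 CPM in WT day 5 libraries (log2 -4.17 ± 0.15, adjusted p = 1.19e-12). Ddx58 had 36.3, 31.6 and 35.3 CPM in P248L day 5 libraries, against 354, 411 and 392 CPM in WT day 5 libraries (log2 -3.49 ± 0.23, adjusted p = 9.81e-10). The gap was narrower for Eif2ak2 and Adar, both above 50 CPM in every untreated library. Eif2ak2, which encodes the double-stranded RNA-activated kinase PKR, had 143, 150 and 141 CPM in P248L day 5 libraries, against 273, 306 and 302 CPM in WT day 5 libraries (log2 -1.02 ± 0.15, adjusted p = 2.21e-05). Adar, an enzyme that converts adenosine to inosine in double-stranded RNA, had 98.4, 92 and 79.3 CPM in P248L day 5 libraries, against 214, 238 and 225 CPM in WT day 5 libraries. Ifih1 rose by 0.58 ± 0.21 in P248L cells (adjusted p = 0.0195) and by 2.47 ± 0.22 in WT cells on the log2 scale. Znfx1, a helicase that binds viral RNA at mitochondria, rose by 2.57 ± 0.22 in P248L cells and by 4.03 ± 0.23 in WT cells.

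The ISG15 system behaved unevenly. Isg15, the ubiquitin-like modifier itself, had 2.5, 2.45 and 2.76 CPM in P248L day 5 libraries, against 101, 116 and 133 CPM in WT day 5 libraries (log2 -5.50 ± 0.19, adjusted p = 8.54e-13). Usp18, which removes ISG15 and also damps the interferon receptor, had 3.66, 2.45 and 3.7 CPM in P248L day 5 libraries, against 242, 245 and 253 CPM in WT day 5 libraries. For both genes the libraries of the lines did not overlap. Trim25, a ubiquitin ligase that acts on RIG-I, had 384, 378 and 437 CPM in P248L day 5 libraries, against 297, 324 and 441 CPM in WT day 5 libraries. These ranges overlapped, and the difference did not pass (log2 0.18 ± 0.15, adjusted p = 0.384). Trim25 rose over untreated in both lines, by 1.85 ± 0.16 in P248L and 1.56 ± 0.16 in WT cells, and the test of the difference of these responses gave 0.30 ± 0.22 with an adjusted p of 0.344.

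**Figure D2:**
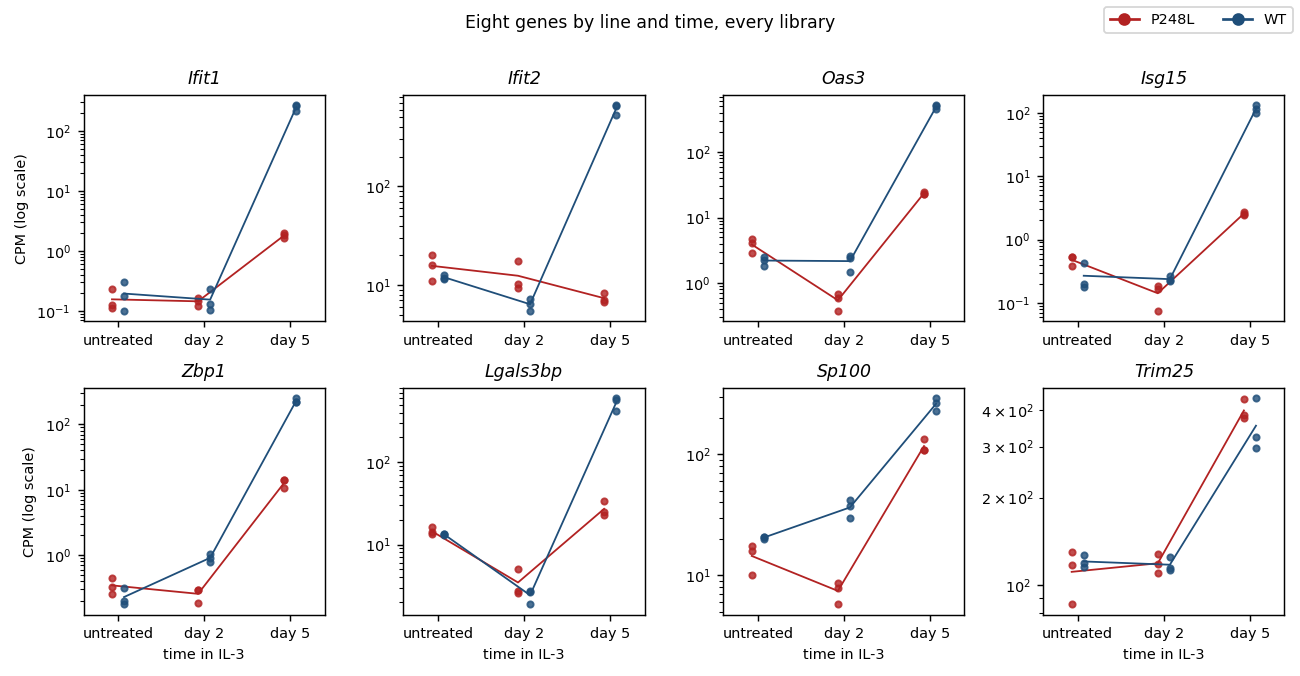
CPM on a log scale of 8 listed genes in every library, by line (colour) and time (untreated, day 2, day 5), with lines through the group means. Ifit1, Oas3, Isg15, Zbp1 and Lgals3bp rise in both lines and end far higher in WT cells, Ifit2 rises in WT cells and falls to 7.36 CPM in P248L cells, and Trim25 did not pass between the lines at day 5.

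Among the direct effectors, Rsad2 (viperin) makes a chain-terminating nucleotide from CTP, and Cmpk2, its neighbour at 12.7 kb on chromosome 12, is a nucleotide kinase. Rsad2 had 2.32, 1.84 and 2.45 CPM in P248L day 5 libraries, against 253, 307 and 394 CPM in WT day 5 libraries (log2 -7.16 ± 0.29, adjusted p = 3.45e-12). Cmpk2 had 3.47, 3.68 and 3.77 CPM in P248L day 5 libraries, against 142, 169 and 172 CPM in WT day 5 libraries. Rsad2 had risen in P248L cells by 3.22 ± 0.41 over untreated, whereas Cmpk2 had not passed there, with a log2 fold change of 0.12 ± 0.21 (adjusted p = 0.629). Bst2 (tetherin), which holds budding virus at the cell surface, also did not pass in P248L cells, with 36.4, 34.8 and 39.5 CPM at day 5, against 48.6, 37.7 and 29.3 CPM untreated. In WT cells Bst2 had 473, 437 and 385 CPM at day 5, against 26.3, 33.5 and 23.8 CPM untreated. The difference of the Bst2 responses was -4.02 ± 0.35 (adjusted p = 2.5e-07). Samd9l, a translation inhibitor, had 190, 196 and 158 CPM in P248L day 5 libraries, against 674, 839 and 781 CPM in WT day 5 libraries.

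The Mx GTPases, which trap viral ribonucleoproteins, gave few reads outside WT day 5, and reads that match both Mx1 and Mx2 are uncertain. Mx1 had 1.07, 1.07 and 1.26 CPM in P248L day 5 libraries, against 30.6, 39.1 and 38.2 CPM in WT day 5 libraries. Mx2 had 0.602, 0.153 and 0.439 CPM in P248L day 5 libraries, against 38.2, 47.5 and 55.5 CPM in WT day 5 libraries, and did not pass against untreated in P248L cells (adjusted p = 0.245). Isg20, a 3'-5' exonuclease, and Ifitm3, a membrane protein that blocks virus fusion, were the effectors whose level did not pass between the lines. Isg20 had 10.7, 9.97 and 10.9 CPM in P248L day 5 libraries, against 15.3, 21.3 and 16.5 CPM in WT day 5 libraries, which do not overlap (log2 -0.75 ± 0.30, adjusted p = 0.0515). That value is at the threshold, and DESeq2 and limma-voom gave adjusted p of 0.0271 and 0.0269. Ifitm3 had 5.46, 4.3 and 7.97 CPM in P248L day 5 libraries, against 8.59, 9.5 and 7.55 CPM in WT day 5 libraries, with an adjusted p of 0.15. Ifitm3 had no reads in any untreated library of either line, so against the limit of 3 counts over a group it was at least 144-fold higher at day 5 in P248L cells and at least 196-fold higher in WT cells. No estimate of the difference of these Ifitm3 responses can be had without untreated reads, and it belongs to a family of similar genes whose shared reads are uncertain.

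Of the PARP genes and their partner Dtx3l, a ubiquitin ligase that forms a complex with PARP9, all 4 rose in both lines and all 4 were lower in P248L than in WT cells at day 5. Parp12 had 11.1, 9.05 and 9.48 CPM in P248L day 5 libraries, against 149, 160 and 181 CPM in WT day 5 libraries (log2 -4.04 ± 0.21, adjusted p = 6.2e-11). Parp14 had 113, 103 and 93 CPM in P248L day 5 libraries, against 441, 540 and 515 CPM in WT day 5 libraries. Both encode mono-ADP-ribosyltransferases. Parp9 and Dtx3l overlap by 558 bases on chromosome 16 and were counted on their own strands. Their rises over untreated in P248L cells were small, at 0.41 ± 0.16 (adjusted p = 0.0318) for Parp9 and 0.47 ± 0.19 (adjusted p = 0.034) for Dtx3l, and passed in 15 and 14 of 31 alternative settings. In WT cells the rises were 2.15 ± 0.17 for Parp9 and 1.94 ± 0.19 for Dtx3l.

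Pml and Sp100 encode components of the PML nuclear bodies. Pml changed least of all 42 genes in WT cells and passed against untreated in neither line at day 5. It had 59.3, 52.9 and 47.8 CPM in P248L day 5 libraries, against 79.4, 86.9 and 87.2 CPM in WT day 5 libraries (log2 -0.66 ± 0.19, adjusted p = 0.00729). The log2 fold change of Pml in WT cells was 0.32 ± 0.18 (adjusted p = 0.131), and passed in DESeq2 with an adjusted p of 0.0332. Sp100 rose strongly in both lines, to 133, 110 and 109 CPM in P248L day 5 libraries, against 9.98, 17.5 and 15.8 CPM in P248L untreated libraries (log2 3.02 ± 0.20), and to 229, 292 and 266 CPM in WT day 5 libraries, against 20.5, 20.1 and 20.8 CPM in WT untreated libraries (log2 3.68 ± 0.20). The difference of the Sp100 responses was -0.65 ± 0.26 with an adjusted p of 0.076. Trim30a, a mouse TRIM protein that restrains NF-κB signalling, had 65.9, 67.7 and 71 CPM in P248L day 5 libraries, against 445, 495 and 515 CPM in WT day 5 libraries.

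The other 8 genes include Slfn5, which reached the highest CPM of all listed genes. Slfn5, a Schlafen family protein, had 270, 219 and 229 CPM in P248L day 5 libraries, against 1817, 2024 and 2065 CPM in WT day 5 libraries (log2 -3.04 ± 0.18, adjusted p = 2.84e-10). Lgals3bp, a secreted glycoprotein that binds galectin, had 33.9, 22.7 and 24.8 CPM in P248L day 5 libraries, against 601, 570 and 421 CPM in WT day 5 libraries. Ifi27l2a had 25.7, 25.6 and 34.4 CPM in P248L day 5 libraries, against 401, 373 and 326 CPM in WT day 5 libraries. Each of these 3 genes rose in both lines. Rtp4, a chaperone of receptors that also binds viral RNA, had the largest difference of responses among genes with reads in all groups. It had 3.75, 2.84 and 3.33 CPM in P248L day 5 libraries, against 3, 3.31 and 2.63 CPM in P248L untreated libraries (adjusted p = 0.495). In WT cells Rtp4 had 202, 212 and 200 CPM at day 5, against 0.298, 0.387 and 0.266 CPM untreated, and the difference of the responses was -9.14 ± 0.31 (adjusted p = 2.7e-12). Epsti1 and Ifi35 also did not pass against untreated in P248L cells, with 0.12 ± 0.17 and -0.12 ± 0.22 on the log2 scale, against 2.74 ± 0.18 and 1.97 ± 0.22 in WT cells. Xaf1, an antagonist of the apoptosis inhibitor XIAP, had 5.84, 3.99 and 7.34 CPM in P248L day 5 libraries, against 69.6, 80.7 and 75.3 CPM in WT day 5 libraries. Ifi44 had no reads in any of the 9 P248L libraries and 7.25, 12.5 and 6.46 CPM in WT day 5 libraries, which puts P248L cells at least 150-fold lower at day 5.

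**Figure D3:**
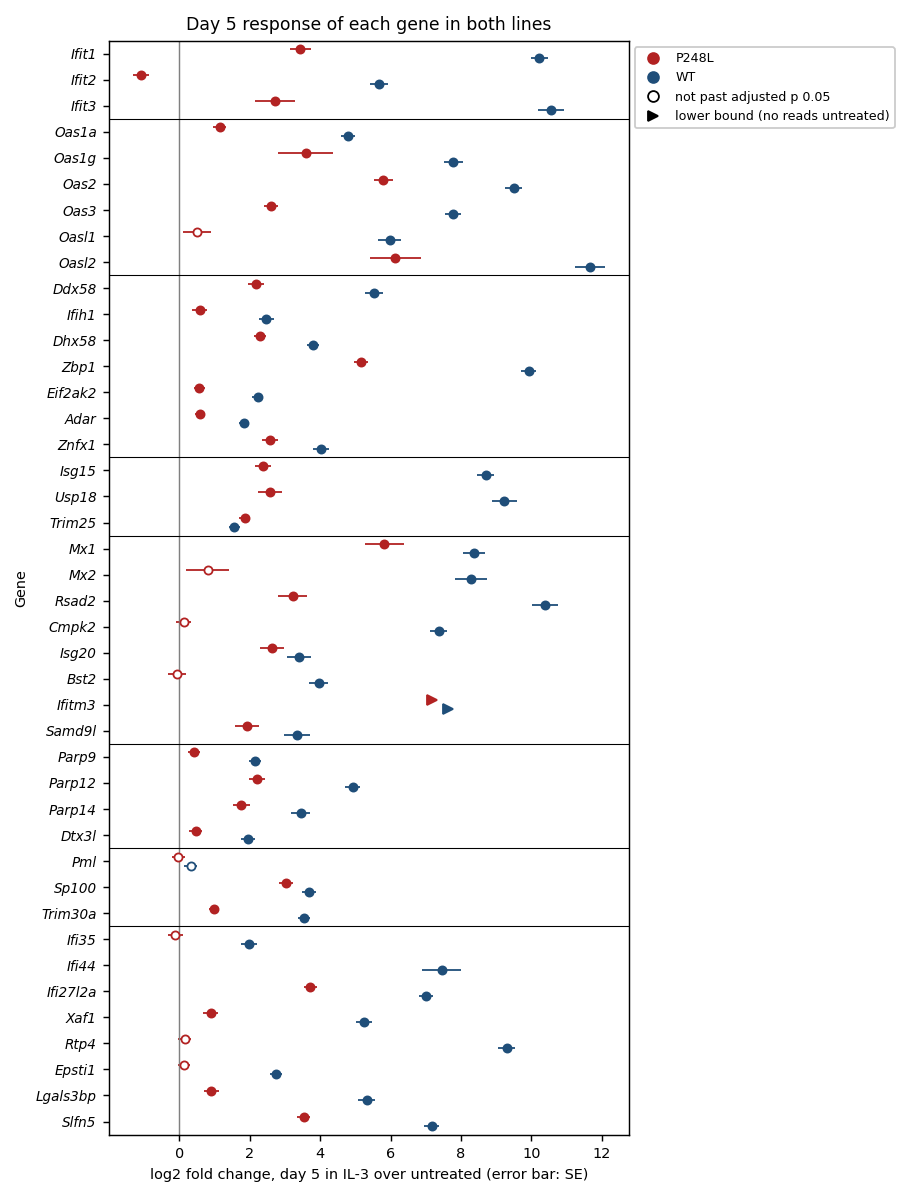
Log2 fold change of each gene at day 5 over untreated in P248L cells (red) and WT cells (blue), with SE bars. Open points did not pass an adjusted p of 0.05, triangles are lower bounds for Ifitm3, and Ifi44 has no value in P248L cells because it had no reads there. Apart from Trim25, every pair of points has the WT value to the right.

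Set directly against each other at day 5, with the same day 5 libraries as above, the lines differed for most listed genes, and 39 of 42 listed genes were lower in P248L than in WT cells and 0 were higher, where 22.7% of all genes were lower and 22.8% higher. The count of higher genes was also 0 at an unadjusted p under 0.05 and in DESeq2 and limma-voom. The mean level in P248L cells was under 5% of the WT level for 16 genes, 5 to under 20% for 10, 20 to under 50% for 12 and 50% or more for 4 (Trim25, Ifitm3, Pml and Isg20). The median was 8.17%. By role, the IFIT genes had a median log2 difference of -7.09, the ISG15 system -5.50, the OAS genes -5.16, the direct effectors -4.27, the RNA sensing genes -2.22, the PARP genes with Dtx3l -2.06 and the nuclear body and TRIM genes -1.16. Over all genes tested the median was 0.02. Scaling by library size alone moved that median to 0.14 and gave 59.8% of all calls as higher, beside 50.01% with TMM. It left 38 listed genes lower, without Pml.

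**Figure D4:**
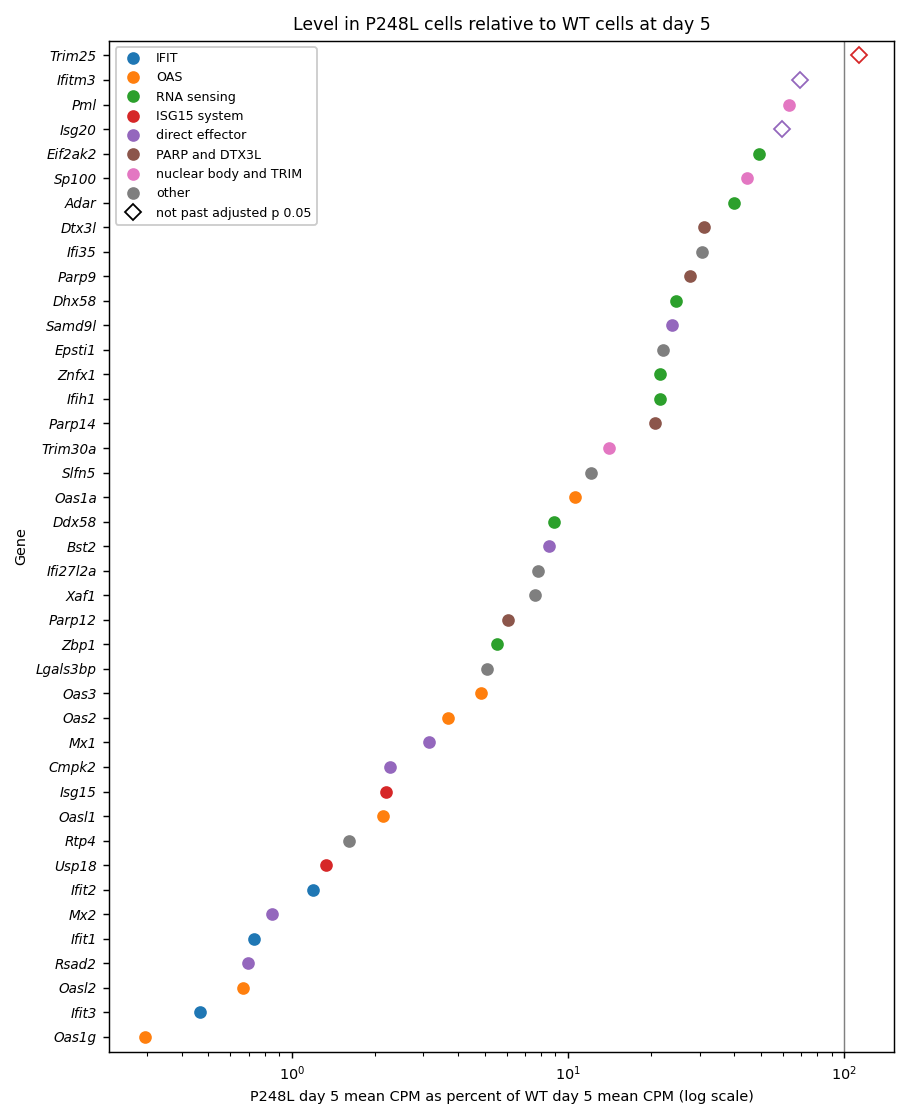
Mean CPM in P248L cells at day 5 as a percent of mean CPM in WT cells at day 5, on a log scale, for the 41 listed genes with reads in both groups, coloured by role. The values run from 0.295% for Oas1g to 113% for Trim25, and the open diamonds (Trim25, Ifitm3 and Isg20) did not pass.

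Per kilobase of exon, levels can be set against each other between genes. In P248L cells at day 5 the highest were Trim25 at 69.5 ± 5.66, Ifi27l2a at 61.7 ± 10.9, Bst2 at 40.9 ± 2.66 and Slfn5 at 37.8 ± 4.27 CPM per kb. In WT cells at day 5 they were Ifi27l2a at 792 ± 82.0, Bst2 at 478 ± 49.2, Slfn5 at 311 ± 21.0 and Lgals3bp at 187 ± 33.8 CPM per kb. Bst2 and Trim25 led in both lines before IL-3, with Bst2 at 42.7 ± 10.7 in P248L and 30.9 ± 5.55 CPM per kb in WT cells. Untreated, 14 listed genes in P248L and 16 in WT cells averaged under 1 CPM.

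At day 2 few listed genes were higher than untreated. More were lower, though in WT cells not far above the share of all genes. In P248L cells 2 were higher and 23 lower, against 18.5% and 21.5% of all genes, with a median log2 fold change of -0.72. Same-numbered libraries deviated together in these 6 libraries, with correlations of 0.46, 0.17 and 0.35, although no label says that the numbers pair them. With the replicate number as a block in these 6 libraries alone, 28 of the 42 were tested and 1 was higher and 17 lower. In WT cells 5 were higher and 12 lower, against 22.1% and 21.8% of all genes, with a median of -0.20. The 12 lower in WT cells are 28.6% of the 42, near the share of all genes, and the 23 lower in P248L cells are 54.8%. Without P248L untreated library 1 and day 2 library 3 the P248L counts were 2 and 24. The 10 genes lower at day 2 in both lines were Ifih1, Dhx58, Parp9, Dtx3l, Trim30a, Ifi27l2a, Xaf1, Rtp4, Epsti1 and Lgals3bp. The share of all genes that were lower in both lines was not computed, so this count has no background beside it. Lgals3bp had 5.09, 2.71 and 2.57 CPM at P248L day 2, against 14, 16.2 and 13.3 CPM untreated (log2 -2.03 ± 0.23), and 2.75, 2.64 and 1.88 CPM at WT day 2, against 13.5, 13.4 and 13.1 CPM untreated (log2 -2.45 ± 0.24). Xaf1 had 0.207, 0.185 and 0.588 CPM at P248L day 2, against 3.3, 3.05 and 2.95 CPM untreated, and 0.305, 0.344 and 0.261 CPM at WT day 2, against 1.69, 2.21 and 2 CPM untreated. Both genes later rose above untreated at day 5 in both lines.

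From day 2 to day 5 in IL-3, 39 listed genes rose in P248L cells and 1, Ifit2, fell, against 37.1% and 33.1% of all genes. Without P248L day 2 library 3 the Ifit2 fall did not pass. In WT cells 41 rose over day 2 and 0 fell, against 36.0% and 34.7% of all genes, and again Pml was the gene that did not pass. The count of 0 was also 0 at an unadjusted p under 0.05 and in DESeq2 and limma-voom. In P248L cells 16 of the 23 genes that were lower at day 2 ended above untreated at day 5, a path whose share over all genes was not computed. Rtp4 in P248L cells had 3, 3.31 and 2.63 CPM untreated, 0.207, 0.0616 and 0 CPM at day 2 and 3.75, 2.84 and 3.33 CPM at day 5, so it fell and returned near its starting level.

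The genes that were higher at day 2 over untreated were Znfx1 and Ifitm3 in both lines and, in WT cells, also Zbp1, Sp100 and Ifi35. Znfx1 had 24.1, 28.3 and 18 CPM at P248L day 2, against 7.43, 13.2 and 14.1 CPM untreated (log2 1.03 ± 0.22, adjusted p = 0.00116), and 38.8, 32.4 and 33.7 CPM at WT day 2, against 22.8, 15.7 and 20.3 CPM untreated (log2 0.84 ± 0.21, adjusted p = 0.00355). Ifitm3 had 0.0827, 0 and 0.294 CPM at P248L day 2 and 1.13, 1.32 and 1.04 CPM at WT day 2, against no reads untreated in either line. The P248L count was 1 without P248L untreated library 1 or 2 or without P248L day 2 library 3. The responses at day 2 differed between the lines for 5 genes, all with the lower response in P248L cells, against 6.50% of all genes with a lower and 3.05% with a higher response. No listed gene had a higher response by this test or in DESeq2 or limma-voom, and 2 did at an unadjusted p under 0.05, Oasl2 and Trim30a. Oas3 had a difference of -2.84 ± 0.36 (adjusted p = 4.16e-05). It fell to 0.372, 0.677 and 0.588 CPM at P248L day 2, against 2.89, 4.65 and 4.1 CPM untreated, and had 2.44, 2.58 and 1.46 CPM at WT day 2, against 1.84, 2.51 and 2.26 CPM untreated. Zbp1 (-2.38 ± 0.45), Ddx58 (-1.87 ± 0.34), Sp100 (-1.80 ± 0.28) and Slfn5 (-1.22 ± 0.25) were the others. The count of 5 became 8 without P248L untreated library 1, without P248L untreated library 3, without P248L day 2 library 1, and without P248L untreated library 1 and day 2 library 3 together. Without P248L day 2 library 1, 1 gene also had a higher response.

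Between the lines at day 2, 4 listed genes were higher in P248L than in WT cells and 17 were lower, against 15.5% and 20.3% of all genes. The higher ones were Ifit2, Eif2ak2, Cmpk2 and Epsti1, and without P248L day 2 library 3 the count of 4 became 2. Sp100 had the smallest adjusted p, with 5.75, 7.88 and 8.6 CPM in P248L day 2 libraries, against 42, 37.2 and 30 CPM in WT day 2 libraries (log2 -2.31 ± 0.20, adjusted p = 6.92e-08). Before IL-3, 6 were higher and 4 lower in P248L than in WT cells, against 10.3% and 11.3% of all genes, which is near the share of all genes called in each direction. Rtp4 had 3, 3.31 and 2.63 CPM in P248L untreated libraries, against 0.298, 0.387 and 0.266 CPM in WT untreated libraries (log2 3.20 ± 0.26, adjusted p = 4.08e-08). Cmpk2 had 2.63, 3.47 and 4.03 CPM in P248L untreated libraries, against 1.24, 0.851 and 0.843 CPM in WT untreated libraries (log2 1.78 ± 0.24, adjusted p = 3e-05). Both genes thus started higher in P248L cells and ended lower there at day 5. Oas3, Eif2ak2, Slfn5 and Xaf1 were the others higher in untreated P248L cells, and Oas1g, Parp12, Znfx1 and Dhx58 the ones lower. The Xaf1 call passed in 9 of 31 alternative settings and the Dhx58 call in 20, and the replicate block ended that of Xaf1 (adjusted p = 0.0517). Without P248L untreated library 1, or without WT untreated library 3, 2 listed genes were lower before IL-3.

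The genes of the interferon pathway itself were examined from a list of 54 names, of which 48 were in the files and 32 were tested. None of the 16 interferon ligand genes in the files had enough reads to be tested. Ifnb1, which encodes interferon beta, had 5, 5 and 10 reads in the 3 WT day 5 libraries and no reads in the other 15 libraries. Zero reads allow up to 0.0593 CPM over the P248L day 5 group, beside 0.423 ± 0.223 CPM in WT day 5 cells. All ligands together had 1 read at P248L day 2 and 3 at P248L day 5, all of Ifnk, and 29 at WT day 5, and Ifng had none in any library.

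Of the 32 tested, 28 rose and 1 fell in P248L cells at day 5 over untreated, beside 34.8% higher and 36.2% lower among all genes. In WT cells 27 rose and 1 fell, beside 35.7% and 37.4% of all genes. Between the lines at day 5, 6 (18.75%) were higher in P248L cells and 15 (46.9%) lower, beside 22.8% higher and 22.7% lower among all genes, so the higher share is near that of all genes. Stat2 and Irf9 were lower in P248L cells but rose in both lines. Stat2 had 129, 117 and 108 CPM in P248L day 5 libraries, against 459, 545 and 463 CPM in WT day 5 libraries (log2 -2.05 ± 0.12). Irf9 had 44.2, 37.1 and 42.3 CPM in P248L day 5 libraries, against 114, 121 and 110 CPM in WT day 5 libraries (log2 -1.48 ± 0.12). Irf7, a factor that amplifies interferon alpha gene expression and is itself interferon-induced, differed more, with 17.1, 13.7 and 18.1 CPM in P248L day 5 libraries, against 571, 672 and 472 CPM in WT day 5 libraries (log2 -5.13 ± 0.29, adjusted p = 1.78e-10).

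The receptor and kinase genes differed less and in both directions. Ifnar1 had 123, 121 and 115 CPM in P248L day 5 libraries, against 170, 174 and 158 CPM in WT day 5 libraries (log2 -0.49 ± 0.13, adjusted p = 0.00522). Ifnar2 had 242, 193 and 217 CPM in P248L day 5 libraries, against 144, 165 and 140 CPM in WT day 5 libraries (log2 0.54 ± 0.12, adjusted p = 0.00125). Jak1 was lower in P248L cells (-0.79 ± 0.14), Tyk2 did not pass (-0.26 ± 0.20, adjusted p = 0.307) and Jak2, which serves the IL-3 receptor, was higher (1.12 ± 0.22). Of the sensing genes, Tlr7, an endosomal sensor of single-stranded RNA, had 169, 156 and 174 CPM in P248L day 5 libraries, against 364, 387 and 372 CPM in WT day 5 libraries, and Tlr3 had 1 read in P248L cells against 2.68, 3.53 and 2.86 CPM in WT day 5 libraries. Ikbke, a kinase upstream of IRF3 and IRF7, was higher in P248L cells (0.97 ± 0.14), and Tbk1 and Mavs did not pass.

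**Figure D5:**
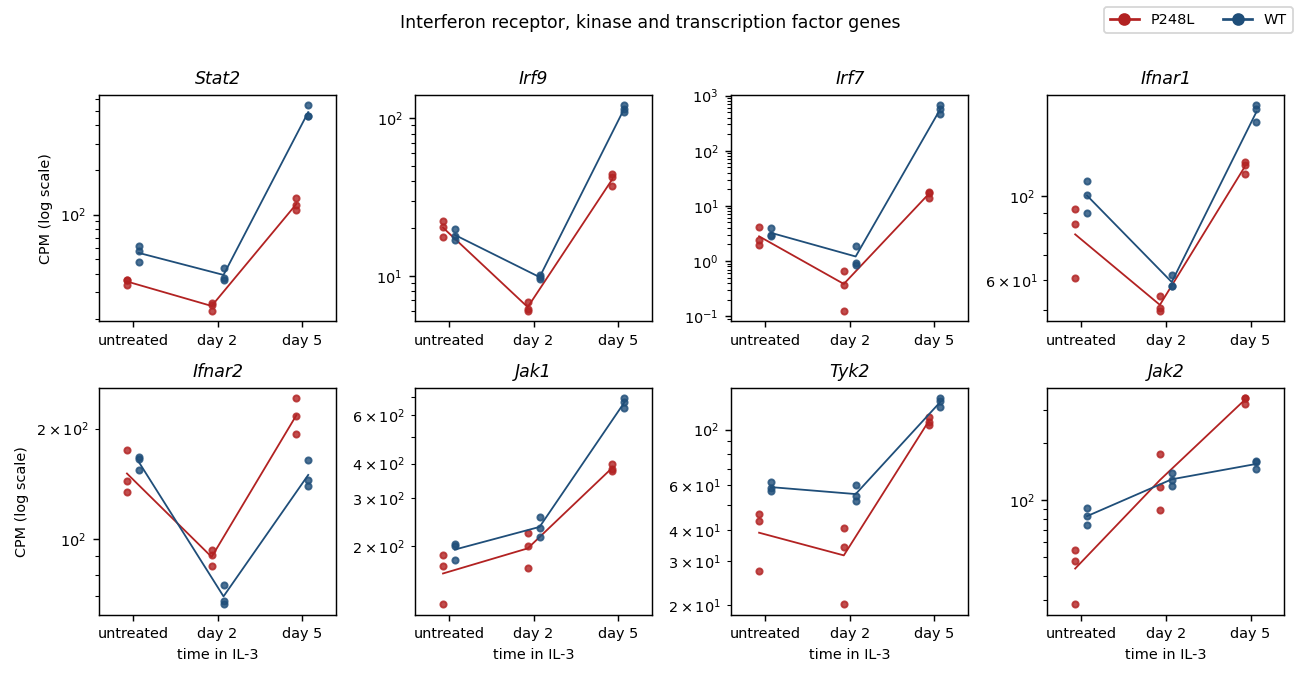
CPM on a log scale of Stat2, Irf9 and Irf7, the 2 receptor subunits, their kinases Jak1 and Tyk2, and Jak2 in every library, by line (colour) and time. At day 5 Irf7 averages 16.3 CPM in P248L and 572 CPM in WT cells, while Ifnar1, Ifnar2 and Tyk2 lie much closer together.

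Cell type markers differed between the lines at day 2 and day 5 as well, and their part in the results above was not tested. Of 39 markers tested at day 2, 8 were higher and 16 lower in P248L cells, beside 15.5% and 20.3% of all genes. Neutrophil markers summed to 96.6 to 172 CPM in P248L and 14945 to 18474 CPM in WT day 2 libraries, with all 8 lower in P248L cells. Progenitor markers summed to 5126 to 9704 CPM in P248L and 2697 to 3293 CPM in WT day 2 libraries. Of these 8, 5 were higher in P248L cells and 3 did not pass. The 8 neutrophil markers in the files all had reads in both day 5 groups. They summed to 28132 to 40401 CPM in P248L day 5 libraries and 9144 to 14743 CPM in WT day 5 libraries, mostly S100a8 and S100a9. At day 5, 5 of them were higher in P248L cells and 3 did not pass. The 8 macrophage and monocyte markers, none at 0 in either group, summed to 2775 to 3201 CPM in P248L and 2000 to 2309 CPM in WT libraries at day 5. Most of them went against that sum, with 5 lower in P248L cells and 1, Ccr2, higher (median log2 difference -1.46). Within that list Siglec1, itself interferon-inducible, averaged 4.88 CPM in P248L and 94.1 CPM in WT cells, Cd68 averaged 348.5 CPM in P248L and 927 CPM in WT cells, and Ccr2 averaged 1845 CPM in P248L and 207 CPM in WT cells. The 8 progenitor markers summed to 400 to 493 CPM in P248L and 116 to 147 CPM in WT libraries, with 6 higher in P248L cells and 2 that did not pass. Basophil and mast cell markers summed to 29.1 to 51.5 CPM in P248L and 2027 to 2998 CPM in WT libraries, mostly Cpa3, with Prss34 at 0 in both groups. Of the 7 plasmacytoid dendritic cell markers, Siglech and Klk1 were at 0 in both day 5 groups, and the sum of 81.5 to 91.6 CPM in P248L and 416 to 500 CPM in WT libraries was mainly Bst2, a listed gene, and Tcf4. Of the 4 tested, 2 (Tcf4 and Cox6a2) were higher in P248L cells and 1, Bst2, was lower. Tcf4 had 48.4, 45 and 50.4 CPM in P248L day 5 libraries, against 25.8, 25.8 and 31.3 CPM in WT day 5 libraries. The 7 conventional dendritic cell markers summed to 355 to 473 CPM in P248L libraries, with Cd209a at 0, and 604 to 762 CPM in WT libraries, mostly Cst3 in both. The 4 erythroid markers stayed under 1 CPM in both groups, with Hba-a1 and Hbb-b1 at 0. The 7 hepatocyte, stromal and endothelial markers summed to 92.4 to 97.4 CPM in P248L and 130 to 136 CPM in WT libraries, nearly all Pecam1. The 9 T, B and NK cell markers summed to 1.07 to 1.20 CPM in P248L and 5.30 to 7.01 CPM in WT libraries, with Cd3e, Cd8a, Ms4a1 and Ncr1 among those at 0 in both. Klrb1c made most of the WT sum, with 4.51, 5.34 and 6.05 CPM, and had no reads in P248L day 5 libraries. Cd3d had 1.11, 0.997 and 1.19 CPM in P248L day 5 libraries, against 0.366, 0.341 and 0.884 CPM in WT day 5 libraries, and did not pass.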

How the data were processed

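Total RNA from 1000000 cells per condition was sequenced as 18 libraries. The submitters' processing notes name STAR and mm10; the STAR version and the gene models are not stated there. The deposited data hold raw counts of reads per gene for each library, as the authors made them, with a column for each strand. The last column (sense for this stranded kit) was used. The other strand held 1.17 to 2.54% of the gene reads of both strands together. The 4 rows that name no gene (27.9 to 38.1% of reads) were left out. edgeR 4.0.16 (R 4.3.3) was fitted to all 18 libraries with 1 mean per group, TMM scaling and filterByExpr (minimum count 10), which left 11942 genes, all 42 listed genes among them. Quasi-likelihood F tests were adjusted by Benjamini-Hochberg over these genes for each of 11 comparisons. The SE is the log2 fold change divided by the square root of F. Where a group had 1 to 3 reads, a ratio with a 95% counting interval replaces the fold, and where it had 0, a bound against 3 counts over the group; intervals and bounds cover counting error only. limma 3.58.1 and DESeq2 1.42.0 served as alternatives, beside other scalings, filters, thresholds and left-out libraries. Scripts were tested on simulated data. Figures used matplotlib 3.10.9. Promoter windows are from RefSeq (GRCm38.p6).

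The members, pathway genes and markers were chosen with earlier results of these data known. All 42 genes may be named, in order of role; full statistics go to called genes of largest change at 10 CPM or more, up to 3 per role, and to genes that moved against the rest or did not pass. Same-numbered libraries deviated together most between P248L day 2 and P248L untreated, with correlations of 0.46, 0.17 and 0.35. Between the lines they were 0.06, 0.07 and 0.16 at day 5, and -0.39, -0.22 and 0.37 untreated. No label tells what the numbers stand for. Oas1a and Oas1g, Mx1 and Mx2, Ifit3, Ifitm3, Ifi27l2a and Trim30a have close relatives whose shared reads are uncertain.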

Additional observations from a re-analysis of the deposited data

Results flagged for a closer look

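The response to IL-3 medium differed between the lines, by the test of the difference itself (edgeR, P248L minus WT, log2 scale in parentheses), for 5 genes at day 2 and 33 genes at day 5. At day 2 the genes were Oas3 (-2.84), Ddx58 (-1.87), Zbp1 (-2.38), Sp100 (-1.80) and Slfn5 (-1.22). At day 5 the genes were as follows by role. Among the IFIT genes it was Ifit1 (-6.79), Ifit2 (-6.76) and Ifit3 (-7.85). Among the OAS genes it was Oas1a (-3.64), Oas2 (-3.70), Oas3 (-5.18) and Oasl1 (-5.47). Among the RNA sensing genes it was Ddx58 (-3.36), Ifih1 (-1.89), Dhx58 (-1.50), Zbp1 (-4.77), Eif2ak2 (-1.65), Adar (-1.24) and Znfx1 (-1.45). In the ISG15 system it was Isg15 (-6.32) and Usp18 (-6.66). Among the direct effectors it was Mx2 (-7.48), Rsad2 (-7.16), Cmpk2 (-7.24), Bst2 (-4.02) and Samd9l (-1.41). Among the PARP genes and Dtx3l it was Parp9 (-1.74), Parp12 (-2.72), Parp14 (-1.69) and Dtx3l (-1.48). Among the nuclear body and TRIM genes it was Trim30a (-2.55). Among the other listed genes it was Ifi35 (-2.09), Ifi27l2a (-3.28), Xaf1 (-4.36), Rtp4 (-9.14), Epsti1 (-2.62), Lgals3bp (-4.41) and Slfn5 (-3.64). All 38 values are negative, and both lines' responses to day 5 passed upward in 25 of the 33. That crossing was not computed over all genes. At day 5 the difference for Samd9l passed in 19 of 31 alternative settings, and the other 32 passed in all of them.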

How the results depend on the processing

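No listed gene reversed a called direction under any alternative run, and of the member values 13914 kept their side of the threshold, 118 gained it and 254 lost it. Calls that passed in every alternative were 38 of 39 for P248L against WT at day 5 (the exception was Pml), 41 of 41 for WT day 5 against untreated, 25 of 33 for P248L day 5 against untreated, 10 of 25 for P248L day 2 against untreated and 4 of 10 for P248L against WT untreated. Counts that moved by over 1.5 times were as follows, and the cause was not tested. DESeq2 gave 8 lower responses at day 2, and so did leaving out P248L untreated library 1 and day 2 library 3 together (chosen after seeing the data). Fits of only the libraries compared, which use fewer samples, gave 0 higher and 9 lower for P248L day 2 against untreated, 3 higher and 1 lower for P248L against WT untreated, and 2 higher and 11 lower at day 2. An adjusted p under 0.01 left 1 higher for P248L day 2 against untreated, 3 higher and 2 lower for P248L against WT untreated, and 2 higher at day 2. Requiring a 2-fold change left 2 higher for WT day 2 against untreated, 13 lower for P248L day 2 against untreated, 0 lower for P248L day 5 against day 2, 2 higher and 2 lower for P248L against WT untreated, and 0 higher at day 2.

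The replicate block over all libraries gave the same 2 higher and 23 lower for P248L day 2 against untreated. The block in these 2 groups alone, added after seeing the data, gave 1 higher and 17 lower of 28 tested. Over all libraries the block ended the call of Xaf1 between untreated lines (adjusted p = 0.0517), added Isg20 between the lines at day 5 (adjusted p = 0.0319) and added Cmpk2 and Isg20 to the lower responses at day 2; it changed no other call.

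Leaving out 1 library at a time gave 1 to 2 higher and 18 to 25 lower for P248L day 2 against untreated, 29 to 32 higher for P248L day 5 against untreated, 36 to 39 higher and 0 to 1 lower for P248L day 5 against day 2, 4 to 8 higher and 2 to 6 lower for P248L against WT untreated, 2 to 5 higher and 14 to 18 lower at day 2, 39 to 40 lower at day 5, 0 to 1 higher and 5 to 8 lower responses at day 2, and 32 to 34 lower responses at day 5. Scaling by library size alone gave a share of higher among all calls of 34.4% for P248L day 2 against untreated, 36.0% for WT day 2 against untreated, 40.5% for WT day 5 against day 2 and 35.8% for P248L against WT untreated, beside 46.4%, 50.4%, 51.0% and 47.7% with TMM. Depth limits the genes under 1 CPM, where a group holds few reads.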
